A study of Mus musculus with 2 samples.

Results

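The type I interferon response was followed through a list of 33 interferon-stimulated genes, of which 32 were among the 31053 genes of the deposited tables, while Mx2 was not analysed here. Members were listed by name as known interferon-stimulated genes. The rule uses no measured value, but the list was drawn up with earlier results of these data known. Single cells came from the dorsal skin of female mice aged 6 to 8 weeks, in 1 wild-type (WT) library and 1 Chrna5-/- library, both labelled as vaseline-treated and taken on day 7. Chrna5 encodes a subunit of nicotinic acetylcholine receptors. The labels give the strain as C57BL/6, the breeding protocol describes backcrossing to C57BL/6N for more than 10 generations, and the extraction protocol names C57BL/6J and skin after imiquimod. Skin was digested with collagenase and live SytoxBlue-negative cells were sorted. Neither the number of mice per library nor the deleted part of Chrna5 is stated in the labels. With 1 library per genotype there was no replicate check and no test across samples, and every difference below is between these 2 libraries. Intervals are 95% intervals that cover counting error only.

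Type I interferons bind the receptor IFNAR1/IFNAR2 on nearly every cell type and activate the kinases JAK1 and TYK2. These switch on a transcription factor complex that holds STAT2 and IRF9 and binds interferon-stimulated response elements, built on repeated GAAA letters, in the promoters of the genes followed here. The products of those genes sense viral RNA, degrade it, block its translation or its exit from the cell, and tune the signal itself. In skin, keratinocytes, fibroblasts and immune cells can all respond.

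The WT library held 10741 barcodes and the knockout library 9696, of which 10166 and 9311 passed a minimum of 500 UMIs (counted molecules) and a maximum of 20% mitochondrial UMIs. Kept cells had a median of 12806 UMIs (WT) and 12624 UMIs (knockout). Fixed markers gave 7786 and 7438 keratinocyte-like cells, 576 and 531 cells like T or innate lymphoid cells, 539 and 454 like dermal papilla, 269 and 291 like fibroblasts, 188 and 86 like melanocytes and 87 and 50 like Langerhans cells, called by the plain names in what follows. Each gate had markers of its own type among its leading genes, which the gating itself selects for. Ptgds ranked first in melanocytes and Vcan in dermal papilla cells, and neither is a gate marker. The libraries shared 34 barcodes. Chrna5 itself had 13 WT and 3 knockout UMIs, too few to check the labels.

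The members lie on 13 chromosomes, and 0 of them lie on chromosome 9 with Chrna5. Of the 33 members, 24 had a RefSeq promoter entry (GRCm38.p6), and the 250 bases before each start were searched on both strands for GAAA, then 2 bases of any kind, then GAAA, the core of the interferon-stimulated response element. This was found for 10 of the 24 members, against 2.98% of 32851 entries of the same length. The units differ, since the 24 members had 28 entries and a match in any entry counted for its member. The 6 promoters printed here, 5′ to 3′ toward each gene's start with each match to this motif on either strand in capitals, belong to 4 members that were lower in the knockout library and hold the motif (Isg15, Ifit1, Oas1a, Bst2), 1 that holds it and was not called (Rsad2) and 1 that was lower without a match in this window (Oasl2).
Isg15 (chr4:156200819-156201068, minus strand): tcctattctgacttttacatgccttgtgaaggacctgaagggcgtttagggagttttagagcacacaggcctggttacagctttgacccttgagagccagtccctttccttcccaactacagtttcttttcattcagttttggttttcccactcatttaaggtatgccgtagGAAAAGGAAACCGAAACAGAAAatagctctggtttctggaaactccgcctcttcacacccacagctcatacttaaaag
Ifit1 (chr19:34640639-34640888, plus strand): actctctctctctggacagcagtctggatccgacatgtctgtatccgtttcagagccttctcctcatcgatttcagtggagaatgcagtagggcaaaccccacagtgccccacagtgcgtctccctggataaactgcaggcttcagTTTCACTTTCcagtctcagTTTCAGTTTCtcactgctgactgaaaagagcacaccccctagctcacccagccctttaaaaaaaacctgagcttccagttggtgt
Oas1a (chr5:120907526-120907775, minus strand): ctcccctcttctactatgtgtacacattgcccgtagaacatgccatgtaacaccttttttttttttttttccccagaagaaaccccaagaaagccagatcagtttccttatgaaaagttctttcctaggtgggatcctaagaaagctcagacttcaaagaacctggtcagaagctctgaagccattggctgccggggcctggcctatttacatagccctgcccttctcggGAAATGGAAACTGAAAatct
Bst2 (chr8:71537473-71537722, minus strand): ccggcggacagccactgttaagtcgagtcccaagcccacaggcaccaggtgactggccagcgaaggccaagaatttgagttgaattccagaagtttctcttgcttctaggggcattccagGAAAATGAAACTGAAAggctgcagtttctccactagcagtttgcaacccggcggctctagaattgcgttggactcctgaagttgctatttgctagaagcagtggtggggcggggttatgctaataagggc
Rsad2 (chr12:26456453-26456702, minus strand): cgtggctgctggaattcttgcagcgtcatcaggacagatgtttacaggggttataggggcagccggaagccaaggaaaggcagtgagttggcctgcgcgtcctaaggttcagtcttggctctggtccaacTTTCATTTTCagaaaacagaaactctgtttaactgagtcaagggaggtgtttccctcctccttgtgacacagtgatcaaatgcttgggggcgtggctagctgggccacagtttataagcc
Oasl2 (chr5:114896684-114896933, plus strand): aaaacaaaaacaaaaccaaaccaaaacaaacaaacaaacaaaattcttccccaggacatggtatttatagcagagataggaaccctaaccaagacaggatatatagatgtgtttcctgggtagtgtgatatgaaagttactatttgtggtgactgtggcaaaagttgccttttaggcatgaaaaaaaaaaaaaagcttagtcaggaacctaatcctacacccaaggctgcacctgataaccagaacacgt
Matches overlapped in 3 of these windows, so that Isg15 counted 3 matches in 1 repeat, starting 78, 72 and 66 bases before its start, and Oas1a and Bst2 counted 2 each. In Ifit1 both matches lie on the opposite strand, 104 and 85 bases before the start. Among members with an entry, 7 of the 13 that were lower over all cells held the motif and 3 of the 11 that were not called held it. A match describes these letters only and is not a measured binding site.

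Levels were compared as CPM, a member's UMIs summed over the cells of a library and scaled to the same total of UMIs in each. Ratios are knockout over WT. A gene with 20 or more UMIs, summed over the pair of libraries, counted as measured, and it was called lower or higher with a ratio of at least 1.5 either way and an interval that leaves out 1. A ratio from a sum over cells cannot tell fewer expressing cells from less RNA per cell, so shares of cells are given separately below.

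Over all cells, 20 of the 32 measured members were lower in the knockout library, 0 were higher and 12 were neither. Among all 16198 measured genes, 9.04% were lower and 2.72% were higher. The members' median log2 ratio was -1.12, beside -0.06 over all measured genes. In keratinocytes, 28 members were measured, 18 were lower, 1 was higher and 9 were neither, beside 7.72% of 14713 genes lower and 2.86% higher, and the members' median log2 ratio was -1.35, beside -0.03. When every cell was thinned to 2000 UMIs, 12 of 27 measured members were lower over all cells. The share of all genes that were lower after thinning was not computed, so this count has no background beside it.

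**Figure D1:**
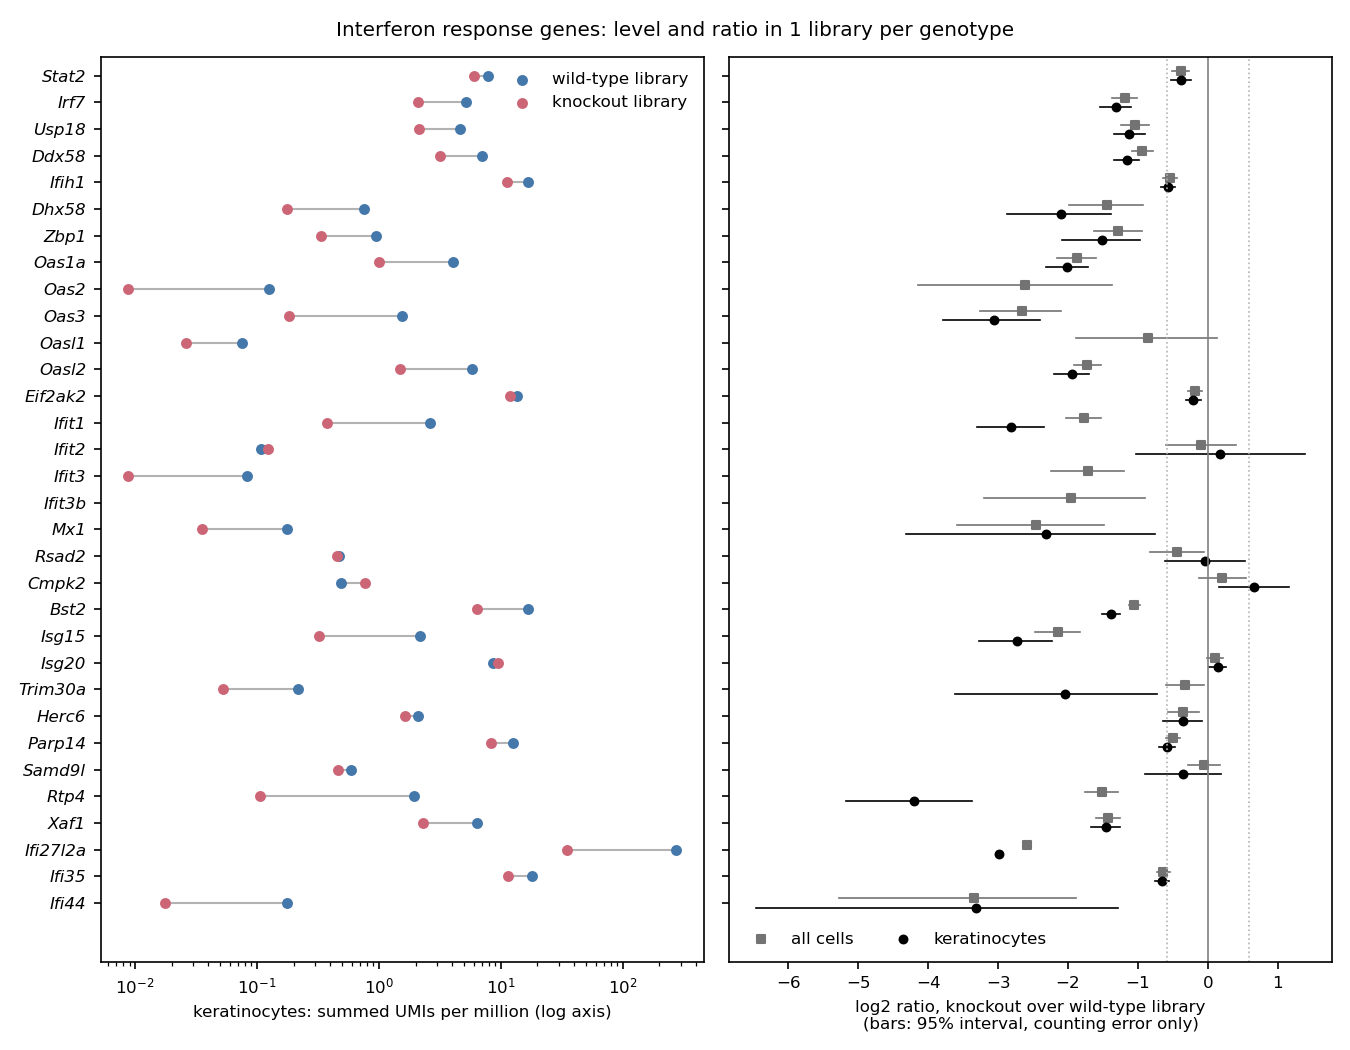
Left, CPM of each member in keratinocytes on a log axis, WT library in blue and knockout library in red (a library without UMIs has no point). Right, log2 ratio of knockout over WT with its 95% counting interval for members with at least 20 UMIs, over all cells (grey squares) and in keratinocytes (black circles), dotted lines at a ratio of 1.5 either way. In keratinocytes 18 ratios lie at the lower side of the dotted line with intervals that leave out 0, and Cmpk2 lies on the higher side.

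Of the pathway's transcription factors and feedback regulator, 2 of 3 were lower. Irf7, the factor that amplifies type I interferon production (ENSMUSG00000025498, chr7:141262706-141266481), had 911 WT and 361 knockout UMIs, or 6.56 and 2.89 CPM, a ratio of 0.440 (0.389 to 0.498). Usp18, which removes ISG15 from proteins and dampens receptor signalling, had 656 and 287 UMIs, or 4.72 and 2.30 CPM, with a ratio of 0.486 (0.422 to 0.559). Stat2, a subunit of the response-element complex, had 1436 and 988 UMIs, a ratio of 0.764 (0.704 to 0.830), and was not called. Irf7 was lower in 8 of 9 keratinocyte states and Usp18 in 7 of the 8 in which it was measured, whereas Stat2 was lower in 1 of 9.

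Among the sensors of viral nucleic acid, Ddx58, which encodes RIG-I (ENSMUSG00000040296, chr4:40203773-40239828), had 1200 and 565 UMIs, or 8.64 and 4.52 CPM, a ratio of 0.523 (0.473 to 0.579). Dhx58, which encodes the related regulator LGP2, had 127 and 42 UMIs, a ratio of 0.367 (0.253 to 0.525). Zbp1, a sensor of Z-form nucleic acid, had 259 and 96 UMIs, a ratio of 0.412 (0.322 to 0.522). These 3 sensors were lower in the knockout library. Ifih1, which encodes MDA5, had 2285 and 1417 UMIs, a ratio of 0.689 (0.644 to 0.737), and did not reach the fold over all cells or in keratinocytes, although it was called lower in 3 of 9 keratinocyte states.

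The oligoadenylate synthetases make the second messenger that switches on RNase L, and the genes form clusters on chromosome 5. Oas1a (ENSMUSG00000052776, chr5:120896256-120907521) had 559 and 137 UMIs, or 4.03 and 1.10 CPM, a ratio of 0.272 (0.224 to 0.329). Oas3 had 211 and 30 UMIs, a ratio of 0.158 (0.104 to 0.232). Oas2, with 41 and 6 UMIs, had a ratio of 0.163 (0.0564 to 0.385). Of these neighbours all 3 were lower over all cells, and Oas2 fell short of 20 UMIs in keratinocytes, with 15 and 1. In the second cluster Oasl2 (ENSMUSG00000029561, chr5:114896936-114912234) had 993 and 271 UMIs, or 7.15 and 2.17 CPM, a ratio of 0.303 (0.264 to 0.347). Its neighbour Oasl1, a translation inhibitor of Irf7, had 28 and 14 UMIs, a ratio of 0.556 (0.270 to 1.09), and was not called. The log2 ratio of Oasl1 turned from -0.85 to 1.07 as a mean over cells. Oasl2 was lower in 9 of 9 keratinocyte states, at ratios from 0.0885 to 0.373. Eif2ak2, which encodes the RNA-activated kinase PKR, had 1981 and 1575 UMIs, a ratio of 0.883 (0.826 to 0.944), and was not called. Oas1a shares sequence with close copies, among them Oas1g with 168 and 35 UMIs, and reads shared between them could not be assigned here.

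The IFIT proteins bind foreign RNA, and their genes sit side by side on chromosome 19. Ifit1 (ENSMUSG00000034459, chr19:34640871-34650009) had 634 and 167 UMIs, or 4.57 and 1.34 CPM, a ratio of 0.293 (0.245 to 0.348). Ifit3 had 149 and 41 UMIs, a ratio of 0.306 (0.211 to 0.435). Its near copy Ifit3b had 39 and 9, a ratio of 0.256 (0.109 to 0.538), and the split of reads between these 2 copies is uncertain. In contrast Ifit2, in the same cluster, had 76 and 64 UMIs, a ratio of 0.936 (0.660 to 1.32), so 3 of the 4 members of the cluster were lower. The 10 cells with most Ifit1 UMIs held 28.4% of them (WT) and 35.3% (knockout).

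Other antiviral effectors also divided. Bst2, tetherin, which holds budding virus at the cell surface (ENSMUSG00000046718, chr8:71534255-71537456), had 4402 and 1913 UMIs, or 31.7 and 15.3 CPM, a ratio of 0.483 (0.457 to 0.510). Mx1, a GTPase that blocks influenza-like viruses, had 61 and 10 UMIs, a ratio of 0.182 (0.0832 to 0.358). Isg15, a ubiquitin-like protein attached to other proteins (ENSMUSG00000035692, chr4:156199424-156200818), had 466 and 95 UMIs, or 3.36 and 0.760 CPM, a ratio of 0.227 (0.180 to 0.283). All 3 were lower. The neighbours Rsad2 and Cmpk2 on chromosome 12, which encode viperin and a nucleotide kinase, did not follow them. Rsad2 had 140 and 93 UMIs, a ratio of 0.738 (0.562 to 0.966). Cmpk2 had 143 and 149, a ratio of 1.16 (0.914 to 1.47). In keratinocytes Cmpk2 was the member called higher, with 58 and 87 UMIs and a ratio of 1.58 (1.12 to 2.24), and it was not called there after thinning, at a fold of 2, under the stricter gate or with the keratinocyte states weighted alike.

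The exonuclease gene Isg20 had 1236 and 1195 UMIs, a ratio of 1.07 (0.991 to 1.16). Herc6, the mouse ligase for ISG15, had 407 and 287 UMIs, a ratio of 0.784 (0.671 to 0.914). Parp14, an ADP-ribosyltransferase, had 1902 and 1215 UMIs, a ratio of 0.710 (0.660 to 0.763). None of these 3 was called over all cells or in keratinocytes. Parp14 was called lower in 3 of 9 keratinocyte states, at a ratio below 1 in all 9, and Herc6 and Isg20 in 0 of 9. Trim30a, a regulator of inflammatory signalling with near copies in its cluster, had 276 and 198 UMIs, a ratio of 0.797 (0.661 to 0.960). Samd9l, an antiviral translation inhibitor, had 339 and 294 UMIs, a ratio of 0.964 (0.821 to 1.13). Neither was called over all cells, while Trim30a was lower in keratinocytes on 26 and 6 UMIs, a log2 ratio of -2.04 that turned to 1.65 after thinning and to 1.58 as a mean over cells.

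The remaining members were lower. Xaf1, an inducible regulator of cell death (chr11:72301629-72313733), had 1159 and 388 UMIs, or 8.35 and 3.11 CPM, a ratio of 0.372 (0.331 to 0.418). Ifi35 had 2628 and 1524 UMIs, a ratio of 0.644 (0.605 to 0.687). Ifi44 had 45 and 4, a ratio of 0.0988 (0.0258 to 0.271). Ifi44 was among the rarest members measured, and in keratinocytes its log2 ratio of -3.32, from 21 and 2 UMIs, became 0.65 after thinning. Rtp4, a transporter of receptors to the membrane (ENSMUSG00000033355, chr16:23520291-23614222), had 610 and 192 UMIs, or 4.39 and 1.54 CPM, a ratio of 0.350 (0.296 to 0.412). In keratinocytes alone it had 232 and 12 UMIs, or 1.94 and 0.105 CPM, a ratio of 0.0543 (0.0277 to 0.0968). Its log2 ratio there, -4.20, became -2.81 after thinning and -5.91 with 5% free RNA subtracted.

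Several of these ratios depended on how cells were weighted. As a mean over cells, the log2 ratio over all cells was -1.15 for Isg15 against -2.14 from the summed UMIs, -1.04 against -1.77 for Ifit1, and -1.64 against -2.66 for Oas3. After thinning it was -0.87 for Rtp4, Ifit3 and Oas2, -1.46 for Oas3 and Ifi44, and 0.25 for Rsad2. The members called over all cells among these kept a ratio below 1 in each of these settings. In keratinocytes, thinning moved the log2 ratio of Mx1 from -2.32 to -0.67, of Oas3 from -3.06 to -2.07, of Isg15 from -2.73 to -3.79, of Dhx58 from -2.10 to -2.94, and of Samd9l, which was not called, from -0.35 to 2.06. As a mean over cells it went from -2.81 to -1.56 for Ifit1 and from -1.51 to -0.72 for Zbp1.

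Ifi27l2a, a small mitochondrial membrane protein gene strongly induced by interferon (ENSMUSG00000079017, chr12:103442167-103443680), carried 37942 of the 63341 member UMIs in the WT library. Its UMIs numbered 5706 in the knockout library, and the levels were 273 (WT) and 45.7 CPM (knockout), a ratio of 0.167 (0.162 to 0.172). In keratinocytes it had 276 and 34.9 CPM, a ratio of 0.126 (0.122 to 0.131). It was lower in each of the 9 keratinocyte states, at ratios from 0.0490 in the Nppb-rich cells to 0.236 in outer root sheath cells. The share of positive cells and the level within them both differed. At 5000 UMIs per cell, 46.9% of 6996 WT keratinocytes (45.8% to 48.1%) and 12.6% of 6577 knockout keratinocytes (11.8% to 13.5%) had at least 1 Ifi27l2a UMI. Positive cells held a mean of 2.94 UMIs (WT) and 1.48 UMIs (knockout), and 8.88% and 0.243% of keratinocytes held at least 5. At the same depth, 1 of 93 WT melanocytes (1.08%, 0.0272% to 5.85%) and 0 of 26 knockout melanocytes (0% to 13.2%) had a UMI. The knockout melanocyte interval includes the knockout keratinocyte share of 12.6%, so these few cells set no background for it. Dermal papilla cells stood at 11.3% (WT) and 2.26% (knockout). Over all cells, the 10 highest cells held 1.75% (WT) and 5.54% (knockout) of the Ifi27l2a UMIs.

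**Figure D2:**
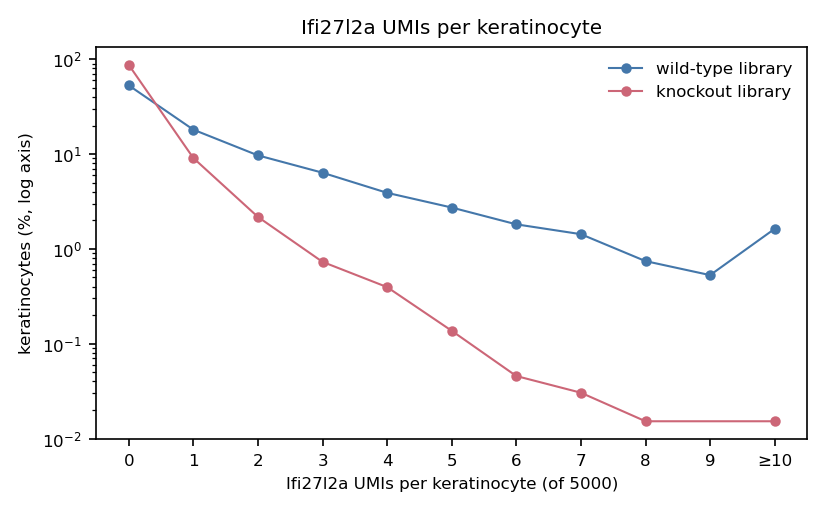
Share of keratinocytes (percent, log axis) by the number of Ifi27l2a UMIs among 5000 per cell, WT library in blue and knockout library in red, where a bin without cells has no point and the last bin pools 10 or more. The knockout points lie above the WT points at 0 UMIs and below them from 1 UMI on.

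For Isg15, Oasl2 and Bst2 in keratinocytes, the libraries differed more in the share of cells with a UMI than in the UMIs per positive cell. Isg15 was found in 2.56% of WT cells and 0.403% of knockout cells, with 1.30 and 1.23 UMIs per positive cell. Oasl2 was found in 6.88% and 1.79%, with 1.29 and 1.28 UMIs per positive cell. Bst2 was found in 18.3% and 8.24%, with 1.39 and 1.18. Positive cells held 1.18 to 1.39 UMIs, and a number this close to the minimum of 1 leaves little room to vary. Keratinocyte depth was alike, with medians of 14414 and 14189 UMIs.

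The share of cells with at least 2 or at least 3 members at once was lower in the knockout library. For at least 5 members the interval over all cells included 1 at 2000 UMIs per cell and left it out at 5000. For at least 8 members it included 1 at both depths. At 2000 UMIs per cell, 356 of 9269 WT cells (3.84%, 3.46% to 4.25%) and 154 of 8484 knockout cells (1.82%, 1.54% to 2.12%) had at least 3 members, a ratio of shares of 0.473 (0.389 to 0.573). For at least 2 members the ratio was 0.426 (0.383 to 0.473). For at least 5, with 64 and 40 cells, it was 0.683 (0.448 to 1.03), and for at least 8, with 10 and 11 cells, the shares were 0.108% and 0.130%, with an interval of their ratio from 0.463 to 3.16. Thinning left out 897 and 827 shallower cells. In keratinocytes the shares were 1.54% (1.28% to 1.85%) and 0.269% (0.162% to 0.420%), a ratio of 0.174 (0.101 to 0.285). Without Ifi27l2a the keratinocyte shares were 0.583% and 0.170%, a ratio of 0.292 (0.140 to 0.563). Fibroblasts stood at a higher level in both libraries, with 52.9% and 38.5% of cells at 3 members or more. At full depth and without Ifi27l2a, 182 WT cells and 55 knockout cells had at least 8 members, of which 82 and 8 were keratinocytes, 47 and 35 fibroblasts, and 19 and 1 melanocytes. These cells differed in depth, with medians of 20222 and 7777 UMIs, and at 2000 UMIs per cell 5 WT and 9 knockout cells had at least 8 members without Ifi27l2a, a ratio of shares of 1.97 (0.592 to 7.47). Without thinning, the ratio of shares for at least 3 members in keratinocytes was 0.399 (0.372 to 0.428), and for at least 5 members over all cells it was 0.280 (0.248 to 0.316). At 5000 UMIs per cell, 184 WT and 77 knockout cells had at least 5 members, a ratio of shares of 0.467 (0.353 to 0.612). For at least 8 members at that depth it was 0.641 (0.367 to 1.10).

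**Figure D3:**
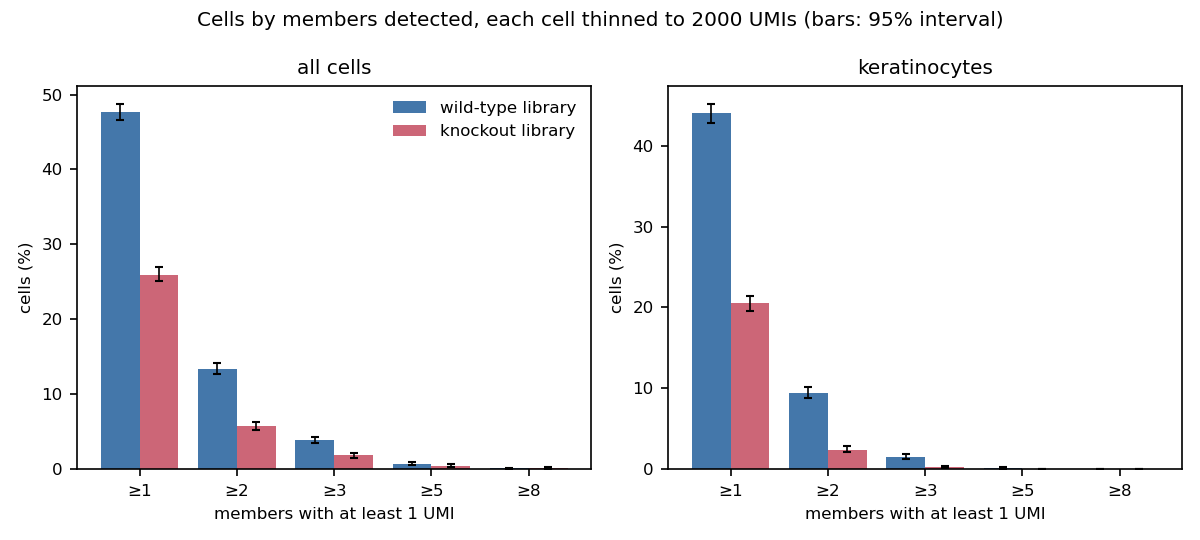
Share of cells with at least 1, 2, 3, 5 or 8 members detected after thinning each cell to 2000 UMIs, over all cells (left) and in keratinocytes (right), WT library in blue and knockout library in red, with exact 95% intervals. At 3 members the bars stand at 3.84% and 1.82% over all cells and at 1.54% and 0.269% in keratinocytes.

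The keratinocyte states were gated from fixed markers, and in each of the 9 compared states more members were lower than the share of all measured genes. The first percentage after each count is the share of all measured genes that were lower in that state and the second is the share that were higher. In replicating cells 16 of 21 measured members were lower (4.32%, 2.2%), in mitotic cells 14 of 22 (4.28%, 2.52%) and in resting basal cells 10 of 16 (3.77%, 2.7%). Inflammatory basal cells had 11 of 19 lower (4.34%, 4.74%), Nppb-rich cells 13 of 20 (5.31%, 3.37%) and suprabasal cells 9 of 17 (4.26%, 3.19%). Outer root sheath cells had 10 of 17 lower (4.93%, 3.58%), upper hair follicle cells 9 of 16 (3.41%, 3.17%) and cells with no state assigned 15 of 23 (5.29%, 2.38%). The number of members called higher was 0 in each of the 9 states. Ifi27l2a, Oasl2 and Xaf1 were lower in all 9, and Oas1a and Bst2 in 8. Bst2 ranged from a ratio of 0.258 in upper hair follicle cells to 0.733 in outer root sheath cells, where it was not called. Isg15 had 36 UMIs in WT upper hair follicle cells and 0 in knockout ones. That is 5.42-fold lower with the 0 set to 3 counts, which is not a lower limit. In inflammatory basal cells Ifit1 had 105 and 1 UMIs, a ratio of 0.0257 (0.000644 to 0.146). In replicating cells it had 13 and 15 UMIs, a ratio of 1.31 (0.583 to 3.00), with 11 of the 15 in 1 knockout cell. Another Ifit1 value rested on single cells: in outer root sheath cells it had 51 and 1 UMIs, and 16 and 0 without the highest cell of each library.

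**Figure D4:**
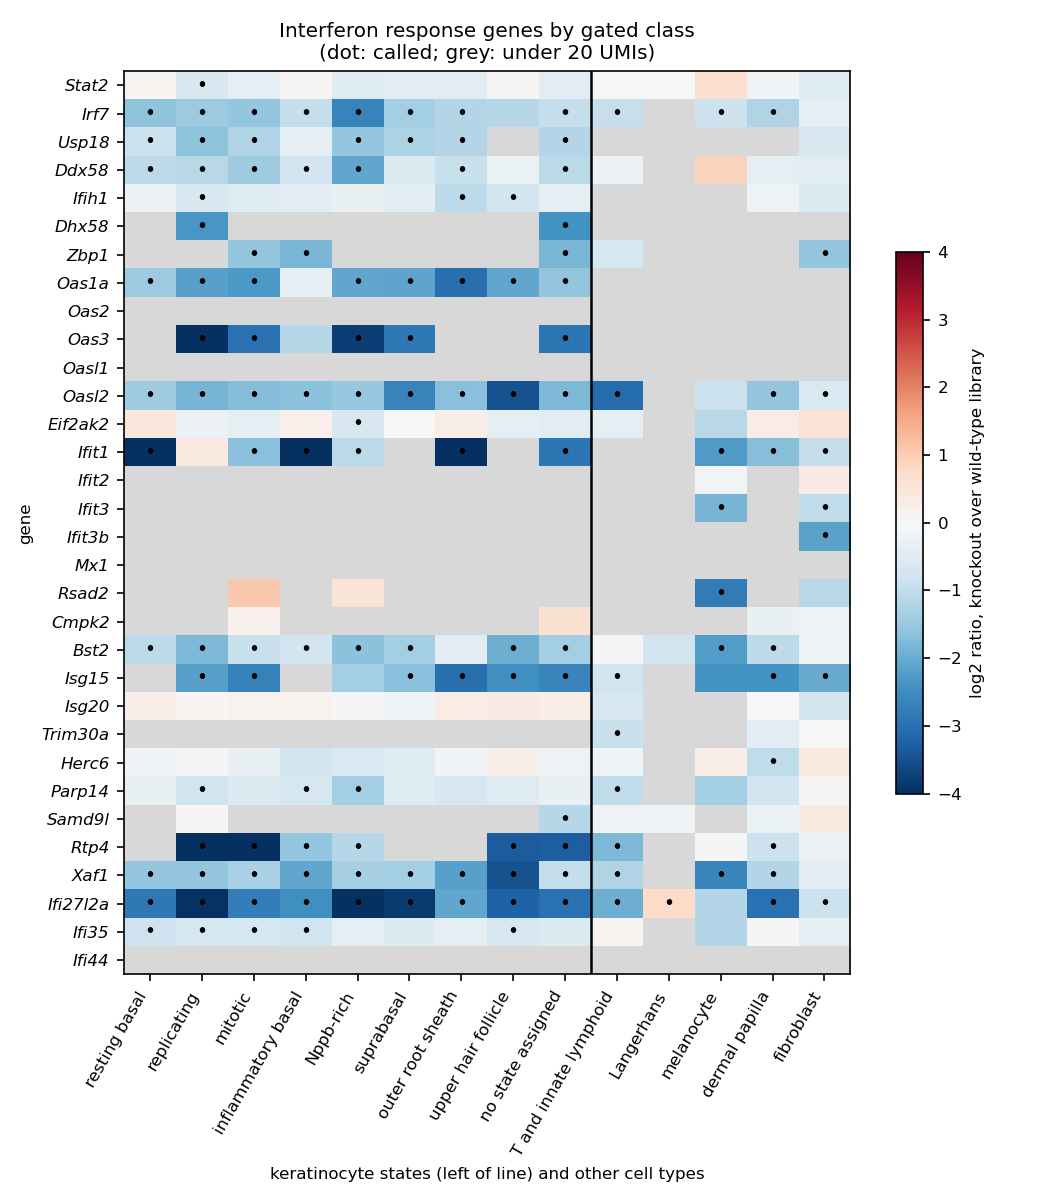
Log2 ratio of knockout over WT for each member (rows) in 9 keratinocyte states and 5 other cell types (columns), blue for lower and red for higher in the knockout library, with a dot where the member was called and grey under 20 UMIs. Ifi27l2a, Oasl2 and Xaf1 carry a dot in all 9 states, and the fibroblast column is paler than the keratinocyte columns.

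Levels of other cell types' markers in the keratinocyte gate also moved. The 7 Langerhans markers summed to 43.6 CPM (WT) and 22.7 CPM (knockout), the 8 melanocyte markers to 77.8 and 40.6, the 9 fibroblast markers to 20.1 and 16.0 and the 10 T and innate lymphoid markers to 62.0 and 52.2. The 6 pericyte markers were also lower, at 14.2 and 3.86 CPM. The 6 dermal papilla markers summed to more in the knockout library, at 7.94 (WT) and 13.1 CPM (knockout), as did the 5 mast cell markers at 1.83 and 3.43 and the 4 Schwann cell markers at 43.2 and 46.4. The 5 plasmacytoid dendritic markers summed to 85 and 78 UMIs, or 0.711 and 0.685 CPM, with Siglech and Cox6a2 at 0 in both. The remaining 8 lists stood at 5.56 CPM or less in both libraries. The part of these other cells in the result was not tested. With the stricter gate, 18 of 27 measured members were lower, and the share of all genes was not computed there.

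Fibroblasts held the members at 2692 (WT) and 1789 (knockout) summed CPM, and 7 of 25 measured members were lower and 0 higher there (5.26% and 5.97% of all genes). Their Ifi27l2a stood at 1347 and 747 CPM, a ratio of 0.554 (0.514 to 0.597), and a UMI was found in 85.3% and 78.4% of fibroblasts at 5000 UMIs. Ifit1 had 184 and 97 UMIs, a ratio of 0.518 (0.401 to 0.666). Oasl2, Zbp1, Ifit3, Isg15 and Ifit3b were also lower, Zbp1 at a ratio of 0.332 (0.200 to 0.534). In contrast Rtp4 had 105 and 90 UMIs, a ratio of 0.842 (0.628 to 1.13), and Bst2 had 368 and 330, a ratio of 0.881 (0.757 to 1.02). Whether fibroblasts and keratinocytes differ in their ratios was not tested.

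Dermal papilla cells, the mesenchyme at the base of the hair follicle, had 9 of 19 measured members lower and 0 higher (4.17% and 3.76% of all genes). Ifi27l2a had 163 and 14 UMIs there, a ratio of 0.126 (0.0672 to 0.217), and Bst2 had 234 and 77, a ratio of 0.482 (0.367 to 0.626). Rtp4 had 140 and 53, a ratio of 0.554 (0.396 to 0.765). Isg15 had 23 and 0. That is 5.24-fold lower with the 0 replaced as for upper hair follicle cells above, which is not a lower limit. The others called were Xaf1, Oasl2, Irf7, Herc6 and Ifit1, of which Ifit1 had under 20 UMIs without its highest cells.

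T and innate lymphoid cells had 8 of 17 measured members lower and 0 higher (4.98% and 4.2% of all genes). The lower members were Ifi27l2a, Trim30a, Isg15, Irf7, Parp14, Xaf1, Rtp4 and Oasl2. Ifi27l2a had 585 and 153 UMIs, a ratio of 0.257 (0.214 to 0.308). Trim30a had 67 and 37, a ratio of 0.543 (0.353 to 0.823). Bst2 stood at 573 and 562 UMIs, or 329 and 317 CPM, with a ratio of 0.964 (0.857 to 1.08), and was not called there. In melanocytes 6 of 17 were lower and 0 higher (4.58% and 8.43% of all genes), among them Bst2 with 726 and 28 UMIs and a ratio of 0.213 (0.140 to 0.310), and Xaf1 with 102 and 3 UMIs and a ratio of 0.162 (0.0329 to 0.487). Ifit3, Ifit1, Rsad2 and Irf7 were the others, each with 3 or fewer knockout UMIs, and Rsad2 was not called without its highest cells. Melanocyte depth differed, at medians of 4896.5 and 3088 UMIs in 188 and 86 cells, which held 2669934 and 484370 UMIs in all. A sum over cells gives the deepest cells most weight. In Langerhans cells 4 members were measured, 0 were lower (5.07% of all genes) and 1 was higher (6.24%). That member, Ifi27l2a, had 65 UMIs in 24 WT cells and 52 UMIs in 3 knockout cells, a ratio of 1.69 (1.15 to 2.47). A single knockout cell held 44 of the 52, and without the highest cell of each library 55 and 8 UMIs remained, a ratio of 0.315 (0.130 to 0.665).

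The interferons themselves were almost unmeasured. Of 11 interferon genes only Ifng, the type II interferon, reached 20 UMIs, and it was higher over all cells, with 117 and 196 UMIs and a ratio of 1.86 (1.47 to 2.36). It had 66 and 111 UMIs in T and innate lymphoid cells, a ratio of 1.65 (1.21 to 2.28), 0 and 23 in the fibroblast gate, and 26 and 12 in keratinocytes. Of 19 receptor and signalling genes, 1 was lower and 1 higher over all cells, where 9.04% and 2.72% of all measured genes were. Irf9, the DNA-binding part of the complex, had 3978 and 2375 UMIs, a ratio of 0.663 (0.630 to 0.698), and Irf1, a target of several cytokines, had 14427 and 20252, a ratio of 1.56 (1.53 to 1.59). The receptor genes Ifnar1 and Ifnar2 had ratios of 0.763 (0.724 to 0.804) and 1.01 (0.957 to 1.06), and neither was called. In keratinocytes 0 of the 19 were lower and 2 were higher (7.72% and 2.86% of all genes). The 2 were Irf1 and the feedback inhibitor gene Socs3, at ratios of 1.68 (1.64 to 1.72) and 1.66 (1.64 to 1.69). Of 10 measured sensors and adaptors, 1 was lower over all cells, a share near that of all genes. It was Adar, with 1661 and 949 UMIs and a ratio of 0.635 (0.586 to 0.688). In keratinocytes 2 of 10 measured ones were lower and 0 higher (7.72% and 2.86% of all genes), namely Adar and Tmem173, which encodes STING.

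Genes outside the list moved in both directions. Of 42 measured other type I response genes, 11 were lower and 3 were higher over all cells (9.04% and 2.72% of all genes). The 11 were Oas1g, Slfn2, Ifi213, Lgals3bp, Ddx60, Phf11d, Ifi209, Lgals9, Uba7, Helz2 and Ube2l6, of which Slfn2 had 535 and 160 UMIs and a ratio of 0.332 (0.277 to 0.397). The 3 higher genes were Ifi204, Ifi205 and Ifi211, and most of their UMIs came from fibroblasts. They belong to 1 family of DNA-sensing proteins, as do Ifi213 and Ifi209 among the lower genes, so this family was called in both directions. Ifi205 had 856 and 1481 UMIs over all cells, of which 672 and 1289 were in fibroblasts. In keratinocytes 15 of 38 were lower and 2 higher (7.72% and 2.86% of all genes). Of 14 measured genes that respond mainly to interferon gamma, 5 were lower and 0 higher over all cells (9.04% and 2.72% of all genes). The 5 were Ciita, Tgtp2, Gbp3, Gbp5 and Igtp. In keratinocytes 6 of 10 were lower and 0 higher (7.72% and 2.86% of all genes). Among the 6 was Cxcl9, with 428 and 153 UMIs and a ratio of 0.376 (0.310 to 0.453).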

How the data were processed

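The matrix of each genotype's library was analysed. The authors deposited UMI counts per gene and barcode, whole numbers without normalization. Per the submitters' processing notes, Cell Ranger 3.0.2, mm10 and Seurat 3.0 were used, while per the file headers the software version was 3.1.0. No source used here states filters before deposit. No per-sample column was left unused (0).

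Barcodes with at least 500 UMIs and at most 20% mitochondrial UMIs were kept. A barcode was a keratinocyte with at least 1% of UMIs on keratinocyte markers, and another type with at least 3 of its markers. Barcodes with 4 markers of another type beside keratins were set aside as mixed (383 and 247), and 314 and 202 stayed ungated. States took the highest marker score, of at least 1 standard deviation. These cut-offs were set on the data, and 869 and 621 cells lay near the keratin one. The hair matrix state was not compared, since fibroblast genes were among its leading genes. Scrublet scores (scanpy 1.11.5) above 0.25 occurred in 4.64% and 4.88% of cells, which were kept in the main values and dropped in an alternative.

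UMIs were summed per class and library. Ratios have exact conditional binomial intervals and shares exact Clopper-Pearson intervals, at 95% (scipy 1.17.1, numpy 2.4.6). A count of 0 was set to 3 per class and library in ratios and medians. The functions were tested on simulated data. Cells were thinned with seed 1. All measured members are named over all cells. Per class, those called are named, up to the 8 with most UMIs, and any called against the keratinocyte direction. The members and lists were chosen with earlier results of these data known. Positions are from GENCODE vM21 (GRCm38), promoters from RefSeq (GRCm38.p6). One signalling gene is not reported here.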

Additional observations from a re-analysis of the deposited data

Results flagged for a closer look

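Ifi27l2a was called in opposite directions in different cell types. In Langerhans cells its log2 ratio was 0.75, higher in the knockout library, while it was lower in keratinocytes, T and innate lymphoid cells, dermal papilla cells and fibroblasts. The difference between cell types was not tested, and the Langerhans value rests on 1 knockout cell with 44 of 52 UMIs.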

How the results depend on the processing

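No paired analysis was possible because each genotype has 1 library. After thinning each cell to 2000 UMIs, 12 members were lower over all cells, with a median log2 ratio of -0.60, and in keratinocytes 0 were higher, with a median of -1.15. As a mean over cells the medians were -0.73 over all cells and -1.02 in keratinocytes. With at least 1000 UMIs and at most 10% mitochondrial UMIs the median over all cells was -1.27. In keratinocytes 0 members were higher at a fold of 2, with states weighted alike, or under the stricter gate. Over the other alternatives, the counts of lower members lay within 1.5 times the values given. Shares of all genes called lower or higher were not computed under the alternatives.

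For at least 3 members, the ratio of shares over all cells was 0.330 at 5000 UMIs. For at least 5 members at 2000 UMIs it was 0.683, with an interval (0.448 to 1.03) that includes 1. In keratinocytes it was 0.0388 at 1000 UMIs and 0.399 without thinning for at least 3 members, and 0.392 for at least 5, where the knockout count was 0 and the floor was used.

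Of the 256 single-member values over all cells, 208 stayed within the counting interval, and of 280 in keratinocytes 252 did. Among members called in keratinocytes 3 values reversed: Ifi44 to 0.65 after thinning, and Trim30a to 1.65 after thinning and to 1.58 when averaged over cells. Members that were not called were left out of this count, and some of them changed sign too. Samd9l in keratinocytes went to 2.06 after thinning. Over all cells Rsad2 went to 0.25 after thinning and Oasl1 to 1.07 when averaged over cells. Without the highest cell of each member, an alternative chosen after seeing the data, Ifi27l2a in Langerhans cells reversed to -1.67. Members with under about 50 UMIs rest on few cells, and intervals cover counting error only. Log2 factors from TMM and median of ratios scaling were -0.05 to -0.06 over all cells and -0.03 in keratinocytes. They were subtracted from the log2 ratios, which therefore rose slightly.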
